A study of Schizosaccharomyces pombe with 130 samples.

Results

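The silent mating-type locus of fission yeast (Schizosaccharomyces pombe) is represented in these data by 5 of the 7021 counted features, chosen by their names in the count files. They are the left inverted repeat IR-L (FP565355_region_1..2120), the P cassette gene mat2-Pc (SPMTR.01, length 400 bases in the files), the repeat-like element cenH (FP565355_region_9170..13408), the M cassette mat3-M (FP565355_region_15609..16735) and the right inverted repeat IR-R (FP565355_region_18009..20128). The digits in these names are start and end on the mating-type contig, a separate sequence on which the authors counted reads. They were followed through 130 samples of 15 genotypes in 6 assays: chromatin immunoprecipitation (ChIP) of RNA polymerase II phosphorylated at serine 2 (31 libraries, Pol II occupancy), RNA bound to the same polymerase (37 libraries, Pol II RIP or nascent RNA), polyadenylated RNA (32, pA RNA), total RNA (8), ChIP of dimethylated histone H3 lysine 9 (9, H3K9me2) and input DNA (13). All cells were grown in rich YES medium.

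The mutants were clr4Δ (no H3K9 methyltransferase), swi6Δ and chp2Δ (no HP1 protein of that name), mit1Δ and clr3Δ (SHREC remodeller and histone deacetylase), ago1Δ (no Argonaute of RNA interference), rrp6Δ (nuclear exosome), exo2Δ (5′ to 3′ exonuclease), the Ccr4-Not mutants caf1Δ, ccr4Δ, mot2Δ and caf1*ccr4* (both deadenylases with point mutations in the catalytic site), and the double mutants caf1Δago1Δ and caf1Δdcr1Δ. They were set against wild type. The strain table of the study gives each strain a mating type. Strains of clr4Δ (number 80), ago1Δ (638), clr3Δ (302), mit1Δ (491), rrp6Δ (504) and exo2Δ (530) are listed as h+. Strains of swi6Δ (301), chp2Δ (324), caf1Δ (510 and 591), ccr4Δ (544), mot2Δ (1022 and 1023), caf1*ccr4* (1168) and caf1Δago1Δ (523) are listed as h90. Wild type is strain 63 (h+) or strain 65 (h90), and strains 524 (caf1Δago1Δ) and 521 (caf1Δdcr1Δ) are not in the table. Strain 63 alone gave the wild-type RIP libraries, strain 65 alone the wild-type total RNA, H3K9me2 and input libraries. In pA RNA 3 wild-type libraries are of strain 63 and 1 is of strain 65, and in ChIP each strain gave 1.

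These strains limit what a genotype stands for. Nearly every genotype is a single strain per assay, so mutation and strain background cannot be told apart, and every Ccr4-Not mutant is h90. Strains 63, 65 and most mutants carry the ura4+ reporter in the centromeric repeat otr1R, mit1Δ carries it at imr1R, strain 591 and caf1*ccr4* carry ade6+ there with his3+ and ura4+ at subtelomeres, and swi6Δ and chp2Δ carry ura4+ at mat3. Strain 65, rrp6Δ, exo2Δ, caf1Δ strain 510, ccr4Δ and mot2Δ also carry FLAG-tagged ago1. The labels do not say that replicates came from separate cultures, so p-values measure the spread between these samples. Transcripts of the deleted gene were above 50% of the median of other genotypes in both libraries labelled clr4Δ in pA RNA (85.5% and 121%), in 1 of 3 labelled swi6Δ (31.2% to 61.1%) and in 1 of 2 labelled caf1Δ (17.5% and 53.2%). In the other 8 single deletions with pA RNA they were at or under 29.5%. In RIP they were above 50% in all 3 libraries labelled clr4Δ (78.9% to 101%), all 3 labelled swi6Δ (68.6% to 86.8%), 1 of 4 labelled chp2Δ (33.7% to 65.3%) and, for dcr1, in the caf1Δdcr1Δ library (55.1%), and in ChIP in 15 of 29 checks of a deleted gene in a library, so genotypes rest on the labels there. Library totals on features ran from 319652 in RIP to 23250126 in ChIP. The 5 features took 0.00131% to 0.0565% of the counts of a pA RNA library and 4.29% to 20.9% of those of an H3K9me2 library.

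Fission yeast expresses its mating type from mat1. The cassettes mat2-P and mat3-M hold the alternative information in silent form and serve as donors when h90 cells switch. Between them lies cenH, which resembles the centromeric dg and dh repeats and nucleates H3K9 methylation through RNA interference; the inverted repeats IR-L and IR-R bound the silent domain and act as barriers, through B-box sequences bound by the factor TFIIIC. An h+ strain keeps P information at mat1, so M sequence is then held at the silent locus only, whereas a switching h90 culture holds cells of either type. The M cassette encodes Mc and Mi and the P cassette encodes Pc and Pi, the factors that set the mating type of the cell.

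The edges of the M cassette are shown because they decide where an M read can be placed. The reference genome (RefSeq, build ASM294v3) holds M at mat1 as well, and a block of 1323 bases was identical in both places: chrII:2114100-2115422 at mat1 and chrII:2132467-2133789 at mat3. The Mc gene inside it lies at chrII:2114482-2115027 in mat1 and at chrII:2132849-2133394 in mat3. The lines below give the plus strand, with the bases shared by both copies in capitals and the flanks particular to each copy in lower case; they lie at chrII:2114070-2114129, chrII:2132437-2132496, chrII:2115393-2115452 and chrII:2133760-2133819, in order.
mat1-M, left edge of the shared block: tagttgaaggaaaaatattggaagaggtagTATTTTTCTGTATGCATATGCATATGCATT
mat3-M, left edge of the shared block: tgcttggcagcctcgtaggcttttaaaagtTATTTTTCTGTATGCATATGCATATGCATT
mat1-M, right edge of the shared block: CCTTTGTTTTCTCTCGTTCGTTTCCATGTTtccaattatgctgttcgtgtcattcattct
mat3-M, right edge of the shared block: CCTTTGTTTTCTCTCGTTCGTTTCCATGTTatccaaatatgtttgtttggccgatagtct
Only a read that crosses such an edge tells the copies apart. The chromosome II entries of the M genes (SPBC1711.02, SPBC23G7.09, SPBC1711.01c and SPBC23G7.17c) had 0 counts in all 130 libraries, so every M read was counted on the contig. A value for mat3-M is therefore M sequence from mat3 and from mat1 together, a value for mat2-Pc is P sequence from mat2 and mat1, and the RNA of an active mat1 cannot be told apart from that of a silent cassette.

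The inverted repeats are 99.86% identical in the reference, 2082 bases on the left (chrII:2129230-2131311) and 2081 on the right (chrII:2135018-2137098), in opposite orientation. Each held 1 match to the B-box core, searched on both strands as GGTTCGA, any 2 bases and CC. Of 6037 genome windows of 2082 bases, 105 (1.74%) held a match. The window around the match is the same 61 bases in both repeats, shown here with the match in capitals, from the plus strand at chrII:2129456-2129516 and from the minus strand at chrII:2136813-2136873.
B-box of the left repeat: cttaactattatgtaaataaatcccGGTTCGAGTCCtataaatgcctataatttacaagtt
B-box of the right repeat: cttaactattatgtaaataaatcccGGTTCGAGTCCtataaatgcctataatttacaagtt
Reads of identical stretches were shared between the copies: in DNA the counts of IR-L and IR-R differed by a median of 0.766% in ChIP, 0.244% in input and 0.169% in H3K9me2 libraries. RNA was counted by strand and was not split evenly, with a median of 2.46 counts on IR-L for 1 on IR-R in pA RNA and 1.67 in RIP. IR-L and IR-R are therefore 1 measurement in DNA. In RNA they differ, but as the copies are near-identical in opposite orientation, stranded counts can separate the strands of the shared sequence. They do not tell which of the repeats an RNA came from.

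Input DNA tells how much M and P sequence each strain holds, and it did not follow the listed mating types. Counts per base were divided by the median of protein-coding genes of the same library and are given as copies, with 1 library per genotype and exact Poisson 95% intervals that cover counting error only. Among strains listed as h+, rrp6Δ held 0.959 copies of M (0.85 to 1.08) and 3.29 of P (2.95 to 3.66), and clr3Δ held 1.94 of M and 2.61 of P. The libraries labelled clr4Δ and mit1Δ held the reverse, 2.18 copies of M (1.86 to 2.55) and 1.07 of P (0.711 to 1.55) in clr4Δ, and 2.26 of M (2.15 to 2.38) and 1.08 of P (0.953 to 1.23) in mit1Δ.

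Expressed as M per P, rrp6Δ DNA had 0.291 (0.248 to 0.342), clr3Δ 0.744 (0.651 to 0.852), ago1Δ 0.808 (0.589 to 1.12), exo2Δ 1.25 (1.1 to 1.42), clr4Δ 2.04 (1.36 to 3.17) and mit1Δ 2.09 (1.83 to 2.4). The h90 mutants lay between 0.76 in caf1Δ and 1.38 in swi6Δ, and h90 wild type (strain 65) had 0.911 (0.617 to 1.37). Only rrp6Δ and clr3Δ of the 6 strains listed as h+ had an interval that lay entirely under 1, and those of exo2Δ, clr4Δ and mit1Δ lay entirely above it. Pol II ChIP of the same strains gave M per P of 0.162, 0.465 and 0.288 in rrp6Δ, 1.77, 3.09 and 1.83 in clr4Δ, 0.958, 3.83 and 1.77 in mit1Δ and 1.29 and 1.73 in exo2Δ, against 0.712 in wild-type strain 63 and 1.41 in strain 65. In H3K9me2 the ratio also carries the level of the mark at each cassette. There M per P was 0.21 in rrp6Δ and 13.7 (12.3 to 15.3) in mit1Δ, against 0.777 in wild type. It was 1.25 in clr3Δ and 2.6 in swi6Δ, where input had 0.744 and 1.38, and 0.796 to 1.03 in chp2Δ, ago1Δ, caf1Δ and exo2Δ. In the following, clr4Δ, exo2Δ and mit1Δ stand for the libraries that carry those labels, whose DNA held more M than P sequence.

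**Figure D1:**
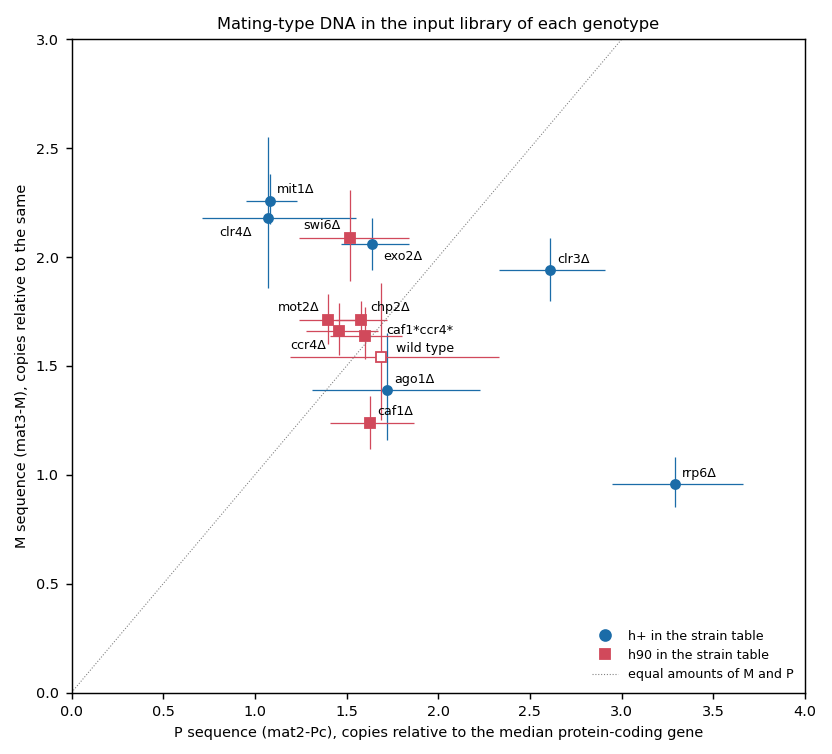
Copies of M sequence (mat3-M, vertical axis) against copies of P sequence (mat2-Pc, horizontal axis) in input DNA, 1 point per genotype, coloured by the mating type listed for its strain, with 95% Poisson intervals for counting error. The points of rrp6Δ (3.29 P, 0.959 M) and of clr4Δ and mit1Δ (1.07 and 1.08 P, 2.18 and 2.26 M) lie at opposite ends although all are listed as h+.

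Polyadenylated M RNA split the libraries more widely than any other member did, and it split the wild type. Levels are in TPM, counts per length scaled to the same sum over protein-coding and heterochromatic features in every library. mat3-M had 35.5 TPM in the wild-type library of strain 65 (437 counts), against 0.448, 0.0809 and 0.176 TPM in the libraries of strain 63 (6, 1 and 2 counts). Nothing overlapped, and the ratio of the counting rates was 137 (71.7 to 302, exact interval for counting error). By edgeR's quasi-likelihood test, adjusted over all features by Benjamini-Hochberg, strain 65 was higher by 7.01 ± 0.46 on the log2 scale (SE, adjusted p = 2.1e-09), where 0.273% of all features tested were higher. Strain 65 is 1 library here, whose spread was taken from the other groups. The other members did not pass the test between these strains, with changes of -0.44 for mat2-Pc to 0.85 for IR-L.

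Among mutants listed as h+, mat3-M had 43.7 and 36.3 TPM in clr4Δ and 27.5 and 26.8 TPM in exo2Δ, where the h90 wild-type library had 35.5 TPM. Intermediate levels were read in ago1Δ (7.07, 8.15 and 5.3 TPM) and clr3Δ (8.23 and 4.15 TPM), and mit1Δ had 2.08 and 1.4 TPM. In rrp6Δ it was 0.271 and 0.223 TPM, within the range of strain 63. All libraries of clr4Δ, exo2Δ, ago1Δ, clr3Δ and mit1Δ lay above those of h+ wild type.

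Against wild type of the listed mating type, 14 of 60 member and mutant pairs rose in pA RNA and none fell, where 3.78% of all such tests were higher and 2.83% lower. For mat3-M these were 5 of 6 h+ mutants: clr4Δ by 7.15 ± 0.44 (adjusted p = 4.6e-10), exo2Δ by 6.67 ± 0.43 (1.5e-09), ago1Δ by 4.63 ± 0.42 (1.3e-07), clr3Δ by 4.62 ± 0.44 (9e-07) and mit1Δ by 2.76 ± 0.46 (0.0027), in edgeR's quasi-likelihood test on the log2 scale. In these mutants 1.08%, 10.4%, 5.05%, 0.606% and 0.197% of all features were higher, in order. rrp6Δ differed by -0.31 ± 0.65 (adjusted p = 0.78, edgeR). As ratios of counting rates over the 9 counts of strain 63, these are 159 (82.9 to 349) for clr4Δ, 28.1 (14.5 to 62.1) for ago1Δ, 7.21 (3.53 to 16.6) for mit1Δ and 0.982 (0.258 to 3.26) for rrp6Δ. The call in mit1Δ was lost without its replicate 1 (2.46 on the log2 scale). The mutants with the most M RNA, clr4Δ and exo2Δ, also had M-rich DNA, but so had mit1Δ with far less M RNA; the part of DNA in the RNA values was not tested.

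In the h90 mutants mat3-M pA RNA was 87.9 and 84.4 TPM in caf1*ccr4*, 74.7 (strain 1022) and 45.2 (strain 1023) in mot2Δ, 58.8 and 57.6 in caf1Δ and 42.6 and 43.4 in ccr4Δ. It was 44, 51.6 and 62.7 TPM in swi6Δ and 39.5, 29.1, 49.5 and 25.1 in chp2Δ, against 35.5 in h90 wild type. All Ccr4-Not mutants and swi6Δ lay above that library, while chp2Δ lay on both sides of it. None passed edgeR's quasi-likelihood test against it, with changes of 0.11 ± 0.40 in chp2Δ to 1.10 ± 0.46 in caf1*ccr4* (adjusted p = 0.14, the lowest p of the 6). That wild type is 1 library, whose spread was taken from the other groups, and a p that misses the threshold does not show that the levels were alike.

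Compared with all 4 wild-type libraries pooled, as the labels name them, mat3-M passed the test in caf1*ccr4* and in rrp6Δ. It was higher by 3.06 ± 1.00 in caf1*ccr4* (adjusted p = 0.037, edgeR), where 9.29% of all features were higher. In rrp6Δ the change was -5.37 ± 1.64 (adjusted p = 0.014, edgeR), where 16.4% of all features were lower. Both depend on which wild-type strain is read: without the library of strain 65 the change was -0.31 in rrp6Δ, which no longer passed, and 8.12 in caf1*ccr4*, while against strain 65 alone caf1*ccr4* had 1.10 and did not pass. The sign depends on it too in ago1Δ, clr3Δ and mit1Δ, where mat3-M had -0.43, -0.43 and -2.29 against pooled wild type, without passing, and 4.63, 4.62 and 2.76 against strain 63. By mean level the order was caf1*ccr4* (86.1 TPM), mot2Δ (59.9), caf1Δ (58.2), swi6Δ (52.8), ccr4Δ (43), clr4Δ (40), chp2Δ (35.8), exo2Δ (27.1), ago1Δ (6.84), clr3Δ (6.19), mit1Δ (1.74) and rrp6Δ (0.247), against 35.5 TPM in strain 65 and 0.235 TPM in strain 63. Neighbours whose libraries overlapped were mot2Δ, caf1Δ and swi6Δ, then ccr4Δ, clr4Δ, chp2Δ and strain 65, then ago1Δ and clr3Δ, and lastly rrp6Δ and strain 63.

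**Figure D2:**
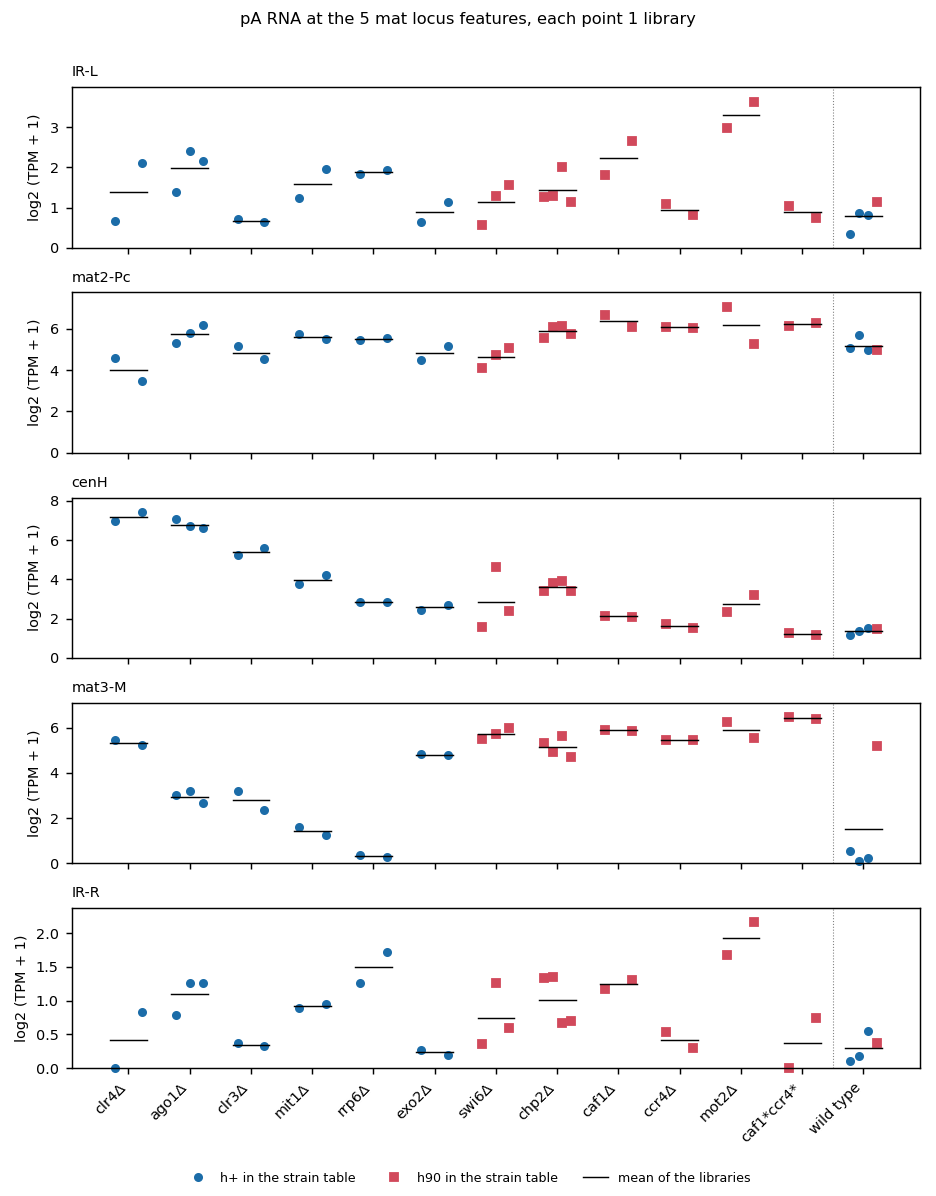
Level of each member in pA RNA, as log2 of TPM plus 1, for every library by genotype, with wild type at the right. Circles are strains listed as h+, squares h90, and lines are means of a genotype. For mat3-M the wild-type square (35.5 TPM) lies with the h90 mutants and the 3 wild-type circles (0.0809 to 0.448 TPM) with rrp6Δ, whereas for cenH clr4Δ and ago1Δ stand highest (95.8 to 171 TPM).

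Nascent M RNA showed the same groups on a narrower scale. mat3-M had 26.3, 39.7 and 43.8 TPM in clr4Δ, 29.7, 50.9, 43 and 32.8 in mot2Δ, 38.4, 34.3 and 43.3 in caf1Δago1Δ, 30.6 and 25.5 in exo2Δ and 26.2, 29.2, 23.2 and 29.4 in chp2Δ. The remaining h90 mutants swi6Δ, caf1Δ, ccr4Δ and caf1*ccr4* held 12.4 to 43.7 TPM, and caf1Δdcr1Δ 18.4. The libraries of ago1Δ (9.76 and 6.63 TPM), clr3Δ (2.64, 9.77 and 8.1), mit1Δ (0, 3.48 and 4.7) and rrp6Δ (3.29 and 4.7) were lower, against 3.03 and 0 TPM in h+ wild type (8 and 0 counts). Those of clr3Δ and mit1Δ overlapped with wild type, and those of the other mutants did not.

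Of 70 member and mutant pairs, 14 rose in nascent RNA and none fell, where 0.873% of all tests were higher and 0.955% lower. mat3-M made 7 of them: mot2Δ (4.11 ± 0.77, adjusted p = 0.0017), caf1Δago1Δ (4.08 ± 0.79, 0.0016), clr4Δ (4.07 ± 0.78, 0.0079), exo2Δ (3.70 ± 0.81, 0.014), chp2Δ (3.58 ± 0.76, 0.048), caf1Δ (3.27 ± 0.79, 0.044) and caf1*ccr4* (3.09 ± 0.81, 0.023), on the log2 scale by edgeR's quasi-likelihood test. In 5 of these 7 the strain is h90 (1 strain of caf1Δago1Δ is unlisted) and wild type is h+, so mutation and mating type cannot be told apart. The calls also rest on 2 wild-type libraries of few counts: of the 14 calls over all members, 8 were made without wild-type replicate 1 and 2 without replicate 2.

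**Figure D3:**
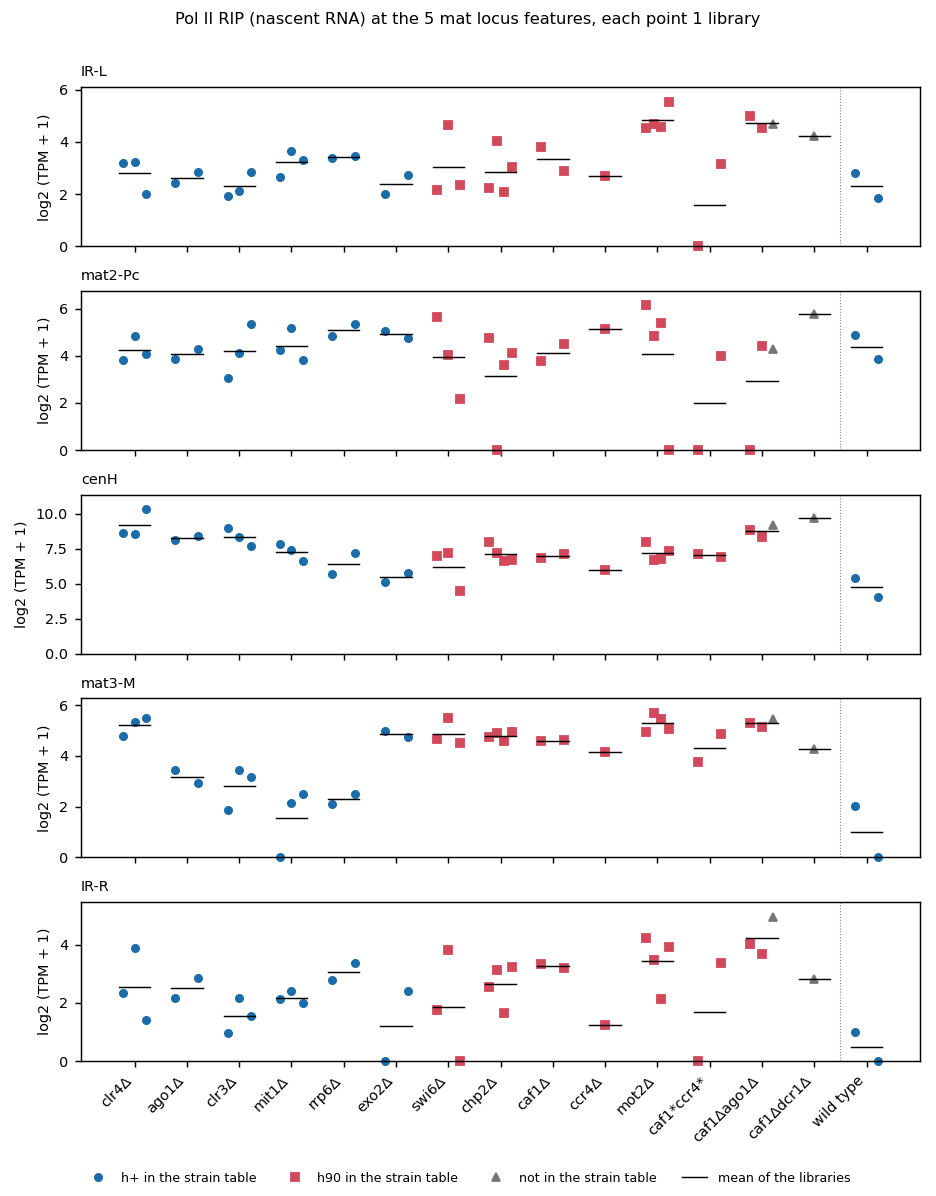
Level of each member in nascent RNA (Pol II RIP), as log2 of TPM plus 1, drawn as for pA RNA. Triangles are strains without a listed mating type. Wild type, at the right, held 3.03 and 0 TPM of mat3-M and 41.3 and 15.9 TPM of cenH, and the mot2Δ libraries held 29.7 to 50.9 TPM of mat3-M and 104 to 250 TPM of cenH.

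Pol II occupancy over M sequence, with input background left in, spanned less. mat3-M had 105, 92.8 and 88.8 TPM in clr4Δ, 154 and 228 in exo2Δ, 75.4 and 96.4 in mot2Δ and 15.3 and 45.3 in caf1*ccr4*, against 117 TPM in wild-type strain 63 and 80.9 in strain 65. Of these, clr4Δ and mot2Δ overlapped with wild type, exo2Δ lay above it and caf1*ccr4* below it. No member passed the test in any of 65 pairs of member and mutant in ChIP, where 2.02% of all tests were higher and 2.18% lower; 19 pairs had an unadjusted p under 0.05 by edgeR and 6 passed with DESeq2. mat3-M changed by -1.52 in caf1*ccr4* to 0.91 in exo2Δ, without passing. The study subtracted scaled input from ChIP, which was not done for the levels here. Relative to wild type, mean mat3-M occupancy was 0.967 in clr4Δ and 0.307 in caf1*ccr4*. With input scaled on the centromeric cores subtracted, these ratios were 0.773 and 0.202.

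Transcription efficiency, the mean RIP level over the mean ChIP level, was 0.669 for mat3-M in caf1*ccr4* (0.274 to 1.84 over pairs of libraries), 0.455 in mot2Δ (0.308 to 0.675), 0.383 in clr4Δ (0.251 to 0.494) and 0.202 in caf1Δago1Δ (0.171 to 0.238), against 0.0153 in wild type (0 to 0.0374). These ranges did not overlap with that of wild type. They passed the test of an interaction of assay and genotype in edgeR (4.59, 4.21, 4.07 and 3.52 on the log2 scale, adjusted p = 0.018, 0.018, 0.019 and 0.0097), and they are 4 of the 6 calls among 65 pairs, where 0.625% of all tests were higher and 0.31% lower, and 7.46% higher in caf1Δago1Δ alone. The values for swi6Δ (0.39), caf1Δ (0.5) and ccr4Δ (0.365) were of like size and did not pass. ChIP levels in all efficiency ratios here hold input background, and the ratios were not recomputed without it. The 1.84 in caf1*ccr4* rests on ChIP replicate 1 (15.3 TPM), whose 17 counts fell to 0 once scaled input was subtracted. In wild-type strain 63, 279 ChIP counts of mat3-M fell to 175. Efficiency calls numbered 2 without the ChIP library of strain 63, 3 without RIP wild-type replicate 1 and 1 without replicate 2. The wild-type ratio joins nascent RNA of strain 63 (h+) only with ChIP of strains 63 and 65. The strains of caf1*ccr4* and mot2Δ and the listed strain of caf1Δago1Δ are h90, and clr4Δ had M-rich DNA. For mat3-M, mutation and M sequence at mat1 therefore cannot be told apart in these ratios.

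RNA stability, the mean pA level over the mean RIP level, ranged for mat3-M between 0.0618 in rrp6Δ and 4.24 in caf1*ccr4*, against 5.98 in wild type. The wild-type value joins pA RNA that includes strain 65 with nascent RNA of strain 63 only. The change in rrp6Δ (-6.23 ± 2.00, adjusted p = 0.036 by edgeR) was the only 1 of 60 to pass, where 0.607% of all tests were higher and 0.928% lower (8.11% in rrp6Δ alone), and without the pA RNA library of strain 65 it did not pass (-1.24). In total RNA mat3-M had 77.1 and 39.5 TPM in clr4Δ, 38.7 and 44.7 in caf1Δ and 15.4 and 2.58 in ago1Δ, against 18.5 and 21.9 TPM in the h90 wild type. The libraries of clr4Δ and caf1Δ lay above wild type and those of ago1Δ below it, and none of 15 pairs of member and mutant passed (8 had an unadjusted p under 0.05 by edgeR, 2 passed with DESeq2; 0% of all features passed in either direction).

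P RNA did not follow M RNA. mat2-Pc pA RNA was 23 and 10 TPM in clr4Δ and 16, 25.8 and 32.2 in swi6Δ, 34.5 and 22 in clr3Δ, 38.3, 53.6 and 71.9 in ago1Δ, and 42.5 and 45.5 in rrp6Δ, against 32, 51.3 and 30 TPM in wild-type strain 63 and 30.2 in strain 65. The libraries of clr4Δ lay below all of wild type. The highest levels were 131 and 37.3 TPM in mot2Δ (strains 1022 and 1023) and 98.7 and 66.9 TPM in caf1Δ, and the mot2Δ strains lay on both sides of the highest wild-type library.

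None of 12 mutants passed for mat2-Pc, with changes of -1.31 in clr4Δ to 0.89 in mot2Δ; 5 had an unadjusted p under 0.05 by edgeR. Nor did any of 14 mutants pass in nascent RNA, where mat2-Pc held 0 to 69.7 TPM in mutants, against 28.8 and 13.6 TPM in wild type. In ChIP it had 177, 295 and 441 TPM in rrp6Δ and 59.3, 30.1 and 48.6 TPM in clr4Δ, against 164 TPM in strain 63 and 57.2 TPM in strain 65. The rrp6Δ library of 441 TPM was left out of the tests; the other 177 and 295 TPM overlapped with the 234 and 208 TPM of caf1Δago1Δ. The wild-type strains differed by -1.54 ± 0.58 for strain 65 over strain 63 (adjusted p = 0.23, edgeR). With 8 of 13 mutants at an unadjusted p under 0.05, mat2-Pc had the most such changes of the 5 members in ChIP, and none passed the adjusted threshold. Against strain 65 (1 library) the h90 mutants among these had -1.11 in ccr4Δ to -0.06 in mot2Δ, where pooled wild type gave -2.07 and -1.01. Against strain 63 (1 library) clr4Δ, mit1Δ and rrp6Δ had -1.86, -1.75 and 0.49, where pooled wild type gave -1.28, -1.17 and 1.07. Input held 1.07, 1.08 and 3.29 copies of P in these mutants, in order. The part of DNA was not tested.

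The element cenH was the member that rose most often in pA RNA, in 9 of 12 mutants. It had 125 and 171 TPM in clr4Δ, 132, 103 and 95.8 in ago1Δ and 36.8 and 47 in clr3Δ, against 1.29, 1.55 and 1.85 TPM in wild-type strain 63 and 1.81 in strain 65. Lower levels were read in mit1Δ (12.6 and 17.7 TPM), chp2Δ (9.47, 13, 14.1 and 9.79), swi6Δ (1.98, 24.1 and 4.18), rrp6Δ (6.2 and 6.1), mot2Δ (4.1 and 8.16), exo2Δ (4.52 and 5.5), caf1Δ (3.39 and 3.28), ccr4Δ (2.28 and 1.91) and caf1*ccr4* (1.43 and 1.26). Every library of the first 11 of these mutants lay above all 4 of wild type, and those of caf1*ccr4* did not. The wild-type strains overlapped, so for this member the wild type could be read as 1 group.

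Over the 5 members, 16 of 60 pairs rose and 1 fell in pA RNA against pooled wild type, where 5.77% of all tests were higher and 4.75% lower. For cenH the changes were 6.39 ± 0.53 in clr4Δ (adjusted p = 2.4e-08), 5.99 ± 0.50 in ago1Δ (2.1e-08), 4.75 ± 0.50 in clr3Δ (1.7e-06), 3.22 ± 0.49 in mit1Δ (0.00057), 2.83 ± 0.44 in chp2Δ (0.00081) and 2.53 ± 0.45 in swi6Δ (0.0035), by edgeR on the log2 scale. The changes in mot2Δ (1.75, adjusted p = 0.044, edgeR), rrp6Δ (1.58, 0.016) and exo2Δ (1.57, 0.027) were the smallest that passed. Of all features, 19.1% were higher in rrp6Δ, 12.8% in exo2Δ, 9.38% in swi6Δ and 2.35% in mot2Δ. The calls in rrp6Δ and exo2Δ are therefore read against wide change. The changes in swi6Δ and mot2Δ each rest on 1 library of the mutant: without replicate 2 they were 0.99 and 0.94. The call in mot2Δ was also lost without any 1 of the wild-type libraries. The call in exo2Δ was lost without replicate 1 of strain 63. Without either of its own libraries the change in rrp6Δ was 1.48 and 1.55. Against wild type of the listed mating type, cenH passed in all 6 h+ mutants (1.60 to 6.41) and in none of the 6 h90 mutants, whose reference is then 1 library.

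Nascent cenH RNA was 394, 368 and 1270 TPM in clr4Δ, 464, 314 and 566 in caf1Δago1Δ, 818 in caf1Δdcr1Δ, 281 and 333 in ago1Δ, 492, 321 and 202 in clr3Δ and 250, 104, 109 and 157 in mot2Δ, against 41.3 and 15.9 TPM in wild type. No library of these 6 mutants overlapped with wild type, and all 6 passed edgeR's quasi-likelihood test: caf1Δdcr1Δ by 4.54 ± 0.75 (adjusted p = 0.00085), clr4Δ by 4.45 ± 0.69 (0.00049), caf1Δago1Δ by 3.84 ± 0.67 (0.00048), ago1Δ by 3.50 ± 0.68 (0.012), clr3Δ by 3.42 ± 0.65 (0.0046) and mot2Δ by 2.25 ± 0.60 (0.042). The caf1Δdcr1Δ value is 1 library. In the Ccr4-Not mutants caf1Δ (114 and 141 TPM) and caf1*ccr4* (140 and 117 TPM) nascent cenH RNA also lay above both wild-type libraries, without passing.

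The stability ratio of cenH was 0.0104 in caf1*ccr4* (0.00897 to 0.0122 over pairs of libraries), 0.0261 in caf1Δ (0.0232 to 0.0297), 0.218 in clr4Δ (0.0982 to 0.464) and 0.359 in ago1Δ (0.288 to 0.469), against 0.0568 in wild type (0.0312 to 0.116). Those of caf1*ccr4* and caf1Δ lay below wild type and that of ago1Δ above it, and none of these changes passed the test. The efficiency ratio was 0.655 in mot2Δ, 0.602 in caf1*ccr4* and 0.575 in caf1Δ, 0.245 in clr4Δ and 0.188 in ago1Δ, against 0.0568 in wild type. Of these ratios the change in caf1Δago1Δ passed (0.397, 3.13 on the log2 scale, adjusted p = 0.023, edgeR).

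Pol II occupancy of cenH was highest in clr4Δ, with 2970, 3500 and 1820 TPM, followed by ago1Δ with 2090 and 1180 TPM, against 415 TPM in wild-type strain 63 and 592 TPM in strain 65. Neither mutant overlapped with wild type, and neither passed (2.43 ± 0.66 in clr4Δ, unadjusted p = 0.0014 and adjusted p = 0.57 by edgeR). In caf1*ccr4* (206 and 221 TPM), caf1Δ (228 and 217), mot2Δ (252 and 222) and ccr4Δ (131) it lay below both wild-type libraries. Mean cenH occupancy relative to wild type was 5.48 in clr4Δ and 0.425 in caf1*ccr4*. With scaled input subtracted these ratios were 7.0 and 0.355. Total RNA of cenH was 169 and 79.8 TPM in clr4Δ, 191 and 74.9 in ago1Δ and 54.7 and 0.463 in caf1Δ, against 1.57 and 1.98 TPM in wild type; the caf1Δ libraries lay on both sides of wild type. Input held 4.44 to 8.41 copies of cenH in mutants and wild type, with 6.29 in wild type, since reads of sequence shared with the centromeric repeats were counted on it too.

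Transcripts of the inverted repeats were few in every strain, and values of IR-L and IR-R do not tell which copy was transcribed. IR-L pA RNA was 6.86 and 11.4 TPM in mot2Δ, 2.54 and 5.36 in caf1Δ and 1.63, 4.33 and 3.45 in ago1Δ, against 0.278, 0.817 and 0.748 TPM in wild-type strain 63 and 1.21 in strain 65. It was 2.55 and 2.84 TPM in rrp6Δ, 1.36 and 2.86 in mit1Δ and 0.591 and 3.31 in clr4Δ. Both mot2Δ strains lay above every other library. All libraries of ago1Δ, caf1Δ, rrp6Δ, mit1Δ and, narrowly, chp2Δ (1.22 to 3.03 TPM) lay above every wild-type library.

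The repeat passed in mot2Δ (3.39 ± 0.59, adjusted p = 0.0011), caf1Δ (1.99 ± 0.58, 0.025) and ago1Δ (1.92 ± 0.54, 0.031) by edgeR's quasi-likelihood test. IR-R had 2.21 and 3.47 TPM in mot2Δ, 1.39 and 2.31 in rrp6Δ and 0.735, 1.39 and 1.39 in ago1Δ, against 0.0794, 0.129 and 0.467 TPM in strain 63 and 0.302 in strain 65. None of these libraries overlapped with wild type, and the repeat passed in mot2Δ (3.33 ± 0.70, adjusted p = 0.0064, edgeR), rrp6Δ (2.56 ± 0.70, 0.0071) and ago1Δ (2.12 ± 0.66, 0.046). Wild type held 22 counts of IR-R in all. When single libraries were left out, the ago1Δ call was lost in 6 fits for IR-R (1.83 to 2.33) and in 3 for IR-L (1.59 to 1.86). The IR-L call in caf1Δ was lost without replicate 1 of strain 63. Against wild type of the listed mating type IR-L rose in ago1Δ (2.18) and rrp6Δ (1.75) and IR-R in rrp6Δ (2.64); mot2Δ then had 2.80 and 3.10 without passing.

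In nascent RNA the same repeats were again high in mot2Δ. IR-L had 21.9, 24.6, 22.8 and 45.4 TPM in mot2Δ and 30.6, 22.1 and 24.8 in caf1Δago1Δ, against 6.03 and 2.57 TPM in wild type. IR-R had 17.5, 10.1, 3.37 and 14 TPM in mot2Δ and 15.3, 11.7 and 30.1 in caf1Δago1Δ, against 1.01 and 0 TPM in wild type. None of these libraries overlapped with wild type, and of the 4 pairs IR-R in caf1Δago1Δ passed (4.55 ± 1.34, adjusted p = 0.029, edgeR; 4.37% of all features were higher in this mutant), a call that was lost without either wild-type library or without the library of strain 524. In total RNA IR-L had 18.7 and 3.65 TPM in ago1Δ, 11 and 2.59 in clr4Δ and 10.9 and 1.54 in caf1Δ, against 0.447 and 0.113 TPM in wild type. In ChIP against wild type of the listed mating type, IR-L (1.30) and mat2-Pc (1.56) rose in caf1Δago1Δ (adjusted p = 0.048 and 0.042, edgeR), where 1.11% of all tests were higher and 1.54% lower, and 7.86% higher in this mutant alone; neither passed without the library of strain 524.

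**Figure D4:**
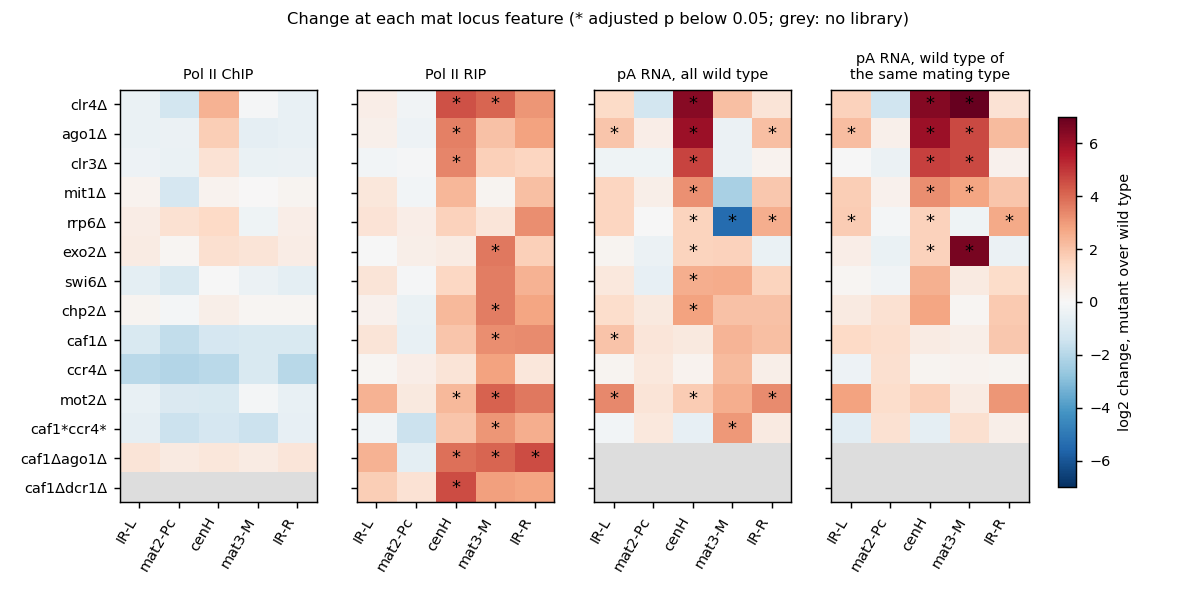
Change of each member against wild type, as log2 fold change of the fitted counts, for Pol II ChIP, Pol II RIP, pA RNA with all wild-type libraries and pA RNA with wild type of the listed mating type. An asterisk marks an adjusted p under 0.05 and grey a mutant without a library. No cell of ChIP carries an asterisk, and mat3-M carries 2 in pA RNA with all wild type and 5 with wild type of the listed mating type.

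H3K9me2 was measured with 1 library per genotype and none for clr4Δ, so its values have no replicate check. Each is the share of H3K9me2 counts over the share of input counts, with an interval for counting error only. At mat3-M it was 1.86 (1.69 to 2.05) in clr3Δ and 3.52 (3.18 to 3.92) in swi6Δ, 14 to 51.6 in the other 6 mutants, and 23.5 (19.2 to 29.0) in wild type. At mat2-Pc it was 1.11 (0.952 to 1.3) in clr3Δ, 1.87 in swi6Δ and 3.82 (3.23 to 4.52) in mit1Δ, 17 to 52.1 in the other 5, and 27.5 (19.9 to 39.1) in wild type. At IR-L it was 1.2 in swi6Δ and 1.69 in clr3Δ, 13.7 to 25.1 in the other 6, and 15.8 in wild type. Thus clr3Δ and swi6Δ were far below wild type at these 3 features, and mit1Δ was low at P but not at M (25).

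At cenH the mark was 144 in caf1Δ, 95.3 in rrp6Δ, 75.1 in swi6Δ, 69.5 in chp2Δ, 50.5 in exo2Δ, 45 in mit1Δ, 38.6 in clr3Δ and 15.8 in ago1Δ, against 85.9 in wild type. So swi6Δ was near the wild-type value at cenH and far below it at IR-L. In ago1Δ the mark was low at cenH but not at mat3-M (51.6) or mat2-Pc (52.1), and at the centromeric dg1 and dh1 it had 4.31 and 5.82, against 79.1 and 71.7 in wild type. In swi6Δ dg1 had 74.6. Reads shared with the centromeric repeats were counted on cenH too, with 6.29 copies in wild-type input. Contrasts of cenH with other members therefore cannot be told apart from contrasts of centromere with silent locus. The scale matters here: protein-coding genes had a share over input of 0.173 to 1.14, against 0.222 in wild type, and dividing by it gave a ratio of ago1Δ to wild type at mat3-M of 0.427, where it was 2.2 without that step. For mit1Δ at mat3-M the ratio was 0.261 with the step and 1.06 without it. The low values of clr3Δ and swi6Δ at IR-L held either way, with ratios of 0.0347 and 0.0573 with the step and 0.107 and 0.0759 without it.

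**Figure D5:**
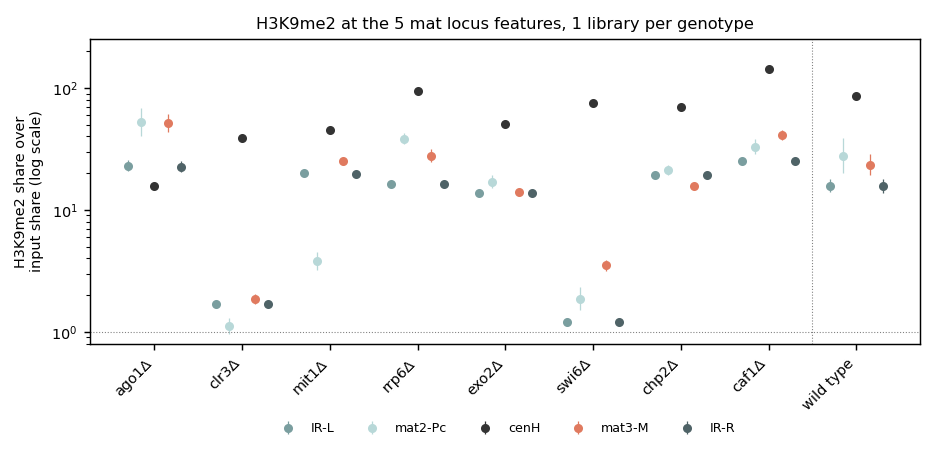
Share of H3K9me2 counts over share of input counts at each member (log axis), 1 library per genotype, with 95% intervals for counting error. At IR-L swi6Δ (1.2) and clr3Δ (1.69) lie far below wild type (15.8), and at cenH ago1Δ lies lowest (15.8, wild type 85.9).

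Set beside other heterochromatin, the counts on cenH moved with those on the centromeric repeats that it resembles. The median change of the 4 dg and dh features in pA RNA was 6.83 in clr4Δ, 6.58 in ago1Δ, 4.54 in clr3Δ and 1.45 in mot2Δ, where cenH had 6.39, 5.99, 4.75 and 1.75 on the same log2 scale. Over the means of 13 genotypes in pA RNA, the features outside the members whose pattern was most like that of cenH were dg1 minus strand (Pearson r = 0.991), dh1 minus strand (0.991) and dh1 plus strand (0.985), among 4949 candidates. Reads of shared sequence were counted on cenH and on these repeats alike, and input held 4.44 to 8.41 copies of cenH. The likeness is therefore in part fixed by the counting, and cenH apart from shared reads was not tested. mat3-M was not alike to cenH (r = -0.239), and its closest features were mrp10 (0.839), cip2 (0.833) and SPAPB2B4.07 (0.817).

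For mat2-Pc the closest were spp1 (0.859), sws2 (0.843) and hnt1 (0.841), for IR-L SPCC777.04 (0.874), rec12 (0.833) and pof3 (0.828), and for IR-R rec12 (0.823), kap114 (0.817) and mor2 (0.816). IR-L and IR-R were alike to each other (0.921). These are descriptions over 13 genotype means, which share libraries and the small set of counts behind the repeats.

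Taking strains as units, mat3-M pA RNA was 35.5 to 86.1 TPM in h90 strains (median 49.0, n = 8) and 0.235 to 40.0 TPM in h+ strains (median 6.19, n = 7). The difference in mean log2(TPM + 1) was 3.14, two-sided exact permutation p = 0.000932 over 6435 assignments, adjusted p = 0.0186 over 20 relations of member and assay. Only clr4Δ of the h+ strains reached the h90 range. No other relation passed; the next was mat3-M in RIP (exact permutation p = 0.0118, adjusted p = 0.0807). Without the Ccr4-Not mutants none passed, with 3 h90 and 7 h+ strains left in pA RNA. The mat3-M difference was then 2.79 (exact permutation p = 0.05). With 120 assignments 1 relation alone could not pass after adjustment, so this does not show that the difference was lost. As all Ccr4-Not mutants are h90, mating type and mutation cannot be told apart. The groups also follow the listed mating types. Input DNA of clr4Δ, exo2Δ and mit1Δ, listed as h+, had M per P of 2.04, 1.25 and 2.09. The test was not run without these strains, so it compares groups of labels rather than mating types read from DNA.

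Genes that respond to the mating type were looked at beside this. The summed pA level of 6 genes of M cells (mfm1, mfm2 and mfm3 for the M-factor pheromone, the exporter mam1, the P-factor receptor mam2 and the protease sxa2) was 85.9 to 796 TPM in 16 h90 libraries (median 167) and 55.8 to 323 TPM in 16 h+ libraries (median 93.5). Within h+ strains it was 308 to 323 TPM in clr4Δ, 153 to 171 in exo2Δ, 148 to 158 in rrp6Δ, 75 to 122 in ago1Δ, 60.8 to 78 in mit1Δ and 55.8 to 64.2 in clr3Δ, against 56.3 to 66 TPM in wild-type strain 63. So the sum lay above strain 63 in clr4Δ, exo2Δ and ago1Δ, which had more M RNA than strain 63, and in rrp6Δ, which did not. In mit1Δ and clr3Δ, which also had more M RNA, it overlapped with strain 63. In clr4Δ it was mostly mfm2, and mam1 (18.9 and 16.7 TPM) lay within the range of strain 63 (15.0 to 21.2 TPM). Between all h90 and h+ libraries, too, mfm2 differed most, with medians of 117 and 41.95 TPM. Medians of mam1 (20.75 and 16.3) and mfm1 (3.755 and 2.94) were somewhat higher in h90 libraries, and mfm3 was near level (5.75 and 5.57). Those of mam2 (7.12 and 8.39) and sxa2 (13.8 and 18.0) were lower in h90 libraries. The P cell genes map1, map2 and map3 summed to 13.5 to 50.3 TPM and overlapped between h90 and h+ strains. Of these, map1, a regulator of P cell genes, rose in rrp6Δ (1.16 ± 0.33 on the log2 scale, adjusted p = 0.0094, edgeR) and none passed in the other 11 mutants. The part of cell type in the member values was not tested.

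Of the 6 M cell genes, mfm1, mfm2 and mam2 rose in swi6Δ (2.88, 3.96 and 1.38 on the log2 scale) and in exo2Δ (1.92, 1.91 and 1.47), mfm1 and mfm3 in rrp6Δ (1.69 and 2.98), 1 in chp2Δ and 1 in clr4Δ, and none in the other 7 mutants. In clr4Δ and in chp2Δ that gene was mfm2, an M-factor precursor, with 257 and 255 TPM in clr4Δ, against 7.61, 20.4 and 24.1 TPM in strain 63 and 48.5 in strain 65 (higher by 3.25 on the log2 scale, adjusted p = 0.0081, edgeR). Among 15 genes of mating-type switching, exo2Δ had 2 higher and 6 lower, with sap1, which binds the switching site, at -1.38, and rrp6Δ had 2 higher and 4 lower, with swi10, a DNA repair endonuclease subunit, at -1.05. Among 19 genes of silencing at the locus, rrp6Δ had 3 higher and 4 lower, with clr2, a SHREC subunit, at -1.03 and the HP1 gene chp2 at 1.07. Of all features, 19.1% were higher and 16.4% lower in rrp6Δ, 12.8% and 8.91% in exo2Δ and 9.38% and 8.17% in swi6Δ, so these counts are read against wide change, whereas 0.288% were higher in chp2Δ and 0.864% in clr4Δ.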

How the data were processed

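The deposited values are counts. The authors aligned reads with STAR 2.7.3a to the PomBase genome of fission yeast, removed ribosomal RNA reads, and counted reads per feature with a custom extension of HTSeq (intersection-strict, stranded for RNA). Unique reads were counted, and multiply mapped ones inside heterochromatin, so identical cassettes and repeats share reads. The counts deposited by the authors are raw, with 1 file per sample, no normalization and no subtraction of input, and the files also give feature lengths. Empty cells (48651 in all) were read as 0. Gene names came from a RefSeq table that matched 6852 features.

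TPM was computed over 5098 protein-coding and 29 heterochromatic features with Python 3.11.15, pandas 2.3.3, numpy 2.4.6 and scipy 1.17.1. The test of counts was that of edgeR 4.0.16 under R 4.3.3 (TMM, quasi-likelihood, 1 fit per assay over all genotypes, Benjamini-Hochberg over all features tested, threshold 0.05). A feature needed 10 counts or more in 2 or more libraries, except that no heterochromatic feature was dropped, so all 5 members were tested in every assay. As in the study, libraries whose Spearman correlation with every replicate was under 0.8, in conditions with 3 or more libraries, were left out of the tests; these were replicate 3 of mit1Δ and replicate 3 of rrp6Δ in ChIP. Their TPM is still given among per-library values. Efficiency and stability changes are interaction terms between assay and genotype, and wild type was also split by strain. The test was run on simulated counts first. DESeq2 1.42.0 served as an alternative, as did its size factors, no filter, comparisons of pairs alone, a replicate block and leaving out each library. In total RNA all 3 same-numbered pairs deviated together (correlations of 0.209 to 0.594), but all hold the same wild-type library, replicate 2. They therefore cannot show that the numbers, which come from the labels, pair these libraries. The replicate block changed no call there. Repeats and cassettes were located with BLAST 2.17.0 in the reference, which holds no copy of the contig. Figures were drawn with matplotlib 3.10.9.

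All 5 members are reported in every contrast. Other genes are named from lists of mating-type markers, switching and silencing genes, or as the 3 features of highest Pearson correlation with a member over genotype means in pA RNA that reach 10 TPM in some genotype. The members and lists were chosen with earlier results of these data known. Reads carry no molecular identifiers, so intervals cover counting error only.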

Additional observations from a re-analysis of the deposited data

Results flagged for a closer look

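In 20 groups of 4 or more libraries tested for a library far from the others, 4 held one, and chance gives about 1 in 20. IR-L nascent RNA in mot2Δ was 45.4 TPM in replicate 5, with 21.9 to 24.6 TPM in the other 3 libraries. IR-L pA RNA in chp2Δ was 3.03 TPM in replicate 3, with 1.22 to 1.45 TPM in the others. mat2-Pc pA RNA in wild type was 51.3 TPM in replicate 3 of strain 63, with 30.0 to 32.0 TPM in the others. mat3-M pA RNA in wild type was 35.5 TPM in the library of strain 65, with 0.0809 to 0.448 TPM in the others, all of strain 63.

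Features of the same contig outside the 5 members held polyadenylated RNA in rrp6Δ above every wild-type library. The P cassette region had 12.8 and 14.6 TPM in rrp6Δ (mean 13.7), with 0.0934 to 5.97 TPM in other mutants, against 0.912 to 4.55 TPM in wild type. The P gene mat2-Pi (SPMTR.02) had 7.82 and 9.89 TPM in rrp6Δ (mean 8.85), with 0 to 1.53 TPM in other mutants, against 0 to 1.37 TPM in wild type. The H2 box, a stretch at the cassette edge that was counted equally at both cassettes, had 37.0 and 43.7 TPM in rrp6Δ (mean 40.3, 49 and 47 counts), with 0 to 14.8 TPM in other mutants, against 1.87 to 6.08 TPM in wild type. rrp6Δ also held the most P copies in input DNA (3.29); its part in these values was not tested.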

How the results depend on the processing

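No change that passed reversed its direction under an alternative, but 3 changes of mat3-M in pA RNA that did not pass against pooled wild type turned positive against strain 63 (mit1Δ -2.29 and 2.76, ago1Δ -0.43 and 4.63, clr3Δ -0.43 and 4.62), and H3K9me2 of ago1Δ at mat3-M relative to wild type was 0.427 with scaling by protein-coding genes and 2.2 without it. Of 627 values of single members recomputed for calls, 483 kept their side of the threshold and 144 lost it. ChIP calls were 0, with 6 by DESeq2, 1 with each mutant fitted with wild type alone, 1 with the replicate block, 2 against wild type of the listed mating type, and 0 to 5 without each library in turn. RIP calls were 14, with 23 by DESeq2, 7 with pairs alone and 2 to 15 without each library. pA RNA calls were 17, with 8 with pairs alone, 19 with the replicate block, 21 by DESeq2 and 11 to 25 without each library. Total RNA had 0, with 2 by DESeq2, 1 with pairs alone and 0 to 0 without each library. Efficiency calls were 6 and 1 to 5 without each wild-type library, the only ones left out for these ratios; the stability call was 1, with 0 without the filter on low counts, 2 with strain 63 as wild type, 0 without the clr4Δ, exo2Δ and mit1Δ libraries, and 0 to 2 without each wild-type library. Against wild type of the listed mating type pA RNA had 14, and 9 to 15 without each library; ChIP had 2, with 1 under DESeq2's size factors, 0 without the clr4Δ, exo2Δ and mit1Δ libraries, 4 with the replicate block and 0 to 2 without each library. The difference of h90 and h+ strains was 1, and 0 without Ccr4-Not mutants, where too few assignments were left for 1 relation alone to pass. Same-numbered libraries deviated together (correlation over 0.1) in 3 of 15 pairs in ChIP, 8 of 23 in RIP and 13 of 28 in pA RNA, so numbers do not pair the samples there. In total RNA all 3 did, but these share 1 wild-type library and cannot show a pairing, and the replicate block left 0 calls. The alternatives without clr4Δ, exo2Δ and mit1Δ libraries, and those of the comparisons with wild type of the listed mating type, were chosen after seeing the data. Few counts of M RNA in strain 63 (9) and of all members in RIP limit the folds.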
